A study of Rattus norvegicus with 60 samples.

Results

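The right knees of 11 rats with haemophilia A that had been bled in the left knee were compared with the right knees of 7 sham rats with the same disease, all taken 24 h after the procedure. The arrays were chosen by their titles alone, as every array of contralateral knee tissue and every array of knee tissue from a control rat. That makes 18 of the 60 arrays of the study and 18 of its 29 knee arrays. The contralateral knee had no induced bleed of its own, so the comparison asks what differs in a joint when the other knee has bled. Haemophilia A is the lack of coagulation factor VIII, and every rat of both groups has it. The remaining arrays, 11 of bled left knees and 31 of popliteal lymph nodes, come from the same 20 rats. Their values are given only beside the contralateral knee, but the bled knees also enter the estimate of the spread. Each array held the RNA of 1 sample from 1 rat, and the labels call the knee samples synovial tissue. Sex, age, strain, the hour of collection, the hybridization batch, and whether the sampled right knee of a sham rat was the one that underwent the sham procedure are not given in the sources used here. Bled and sham rats were different animals, so an unrecorded batch and the group cannot be told apart, and the p-values measure only the spread between these rats.

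Daily rhythms of gene expression run in nearly every tissue, joint tissue included, through a loop of transcription factors. Bmal1 with Clock or Npas2 activates genes that carry an E-box, among them the Per and Cry genes, whose proteins block the activators, and Nr1d1, whose protein represses Bmal1 through ROR elements. Dbp and Tef, activators that bind the D-box, and Nfil3, a repressor at the same site, pass the rhythm on to genes of metabolism and detoxification. The synovium otherwise consists of lining cells, fibroblasts, vessels, resident macrophages and fat, and it borders on muscle and cartilage.

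The values are log2 expression values. Calls were made at an adjusted p under 0.05 in limma, which fits a linear model to every probe set and shares the estimate of the spread between them. A difference is the mean of the contralateral knees minus the mean of the sham knees on the log2 scale, given ± SE, so that a difference of 1 is a 2-fold change. The 2 groups held 11 and 7 knees throughout, and the spread was estimated from all 29 knee arrays, the bled ones among them. Of 36685 probe sets 666 (1.82%) were called, 361 higher and 305 lower in the contralateral knees. In a fit of the 2 compared groups alone 381 were called. When the median of each array was subtracted first, 634 were higher and 217 lower. With 1 probe set for each of 18166 named genes, 443 genes (2.44%) were called, 306 of them higher (1.68%) and 137 lower (0.754%). The difference reached 2-fold in 18 of the higher and 13 of the lower genes. For 55 genes (0.303%) the values of the groups did not overlap. The median difference over all named genes was 0.01.

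Of the 91 called probe sets that were at least 2-fold lower, 78 have no gene in the annotation of the array used here. Of these, 74 belong to a run of neighbouring probe set numbers, from 17818437 to 17818609, and hold only 27 distinct profiles across the knee arrays. The mean of the run was 5.34 to 7.29 in the contralateral knees (median 6.47) and 7.18 to 8.57 in the sham knees (median 7.98), and 1 contralateral knee lay above the lowest sham knee. Because the run repeats itself, the numbers of lower transcripts are read by gene below.

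**Figure D1:**
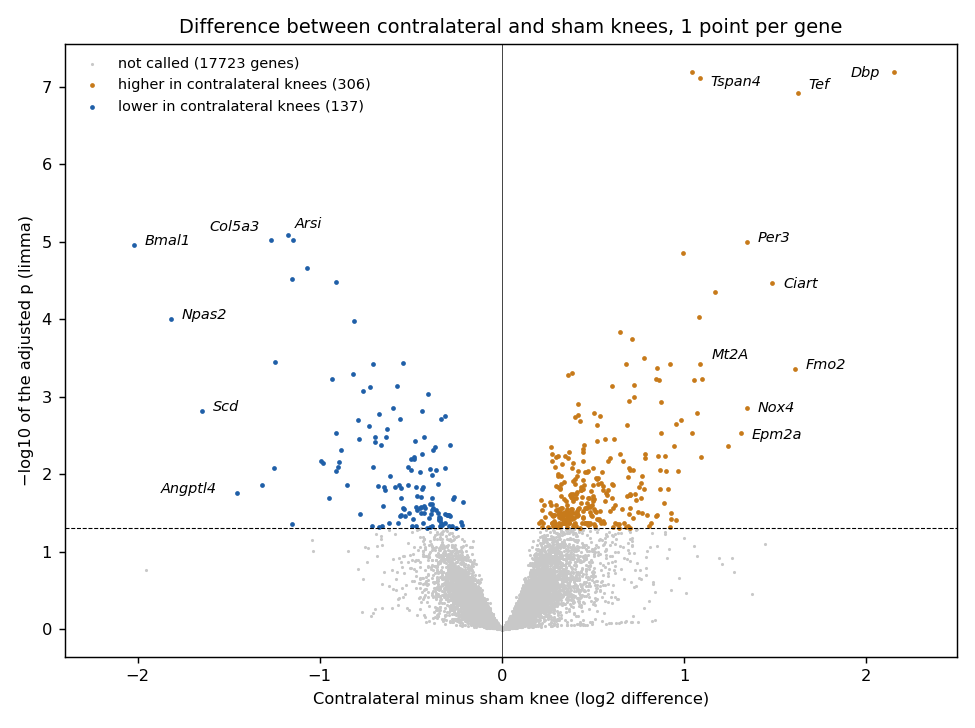
Each point is 1 of 18166 named genes, with the contralateral minus sham difference (log2) on the x axis and −log10 of the limma adjusted p on the y axis. The dashed line marks an adjusted p of 0.05; Dbp lies farthest to the right among the called genes and Bmal1 farthest to the left, and 306 genes are called on the right against 137 on the left.

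The tissue was checked against its markers. The mean of 25 synovial lining and fibroblast genes was 10.19 to 10.59 in the contralateral and 10.34 to 10.71 in the sham knees, well above the array medians of 5.64 to 5.94. The mean of 24 skeletal muscle genes ran from 5.78 to 11.5 in the contralateral and from 5.75 to 11.44 in the sham knees, so both groups held knees with much and with little muscle RNA. The mean of 26 adipocyte genes was 10.52 to 11.1 in the contralateral and 10.43 to 11.18 in the sham knees. That of 13 erythroid genes was 6.14 to 7.85 in the contralateral and 5.69 to 6.21 in the sham knees, overlapping through K1 alone. Of the erythroid genes 12 had a positive difference, with a median of 0.34, against 52.9% of all named genes. No gene of the muscle, adipocyte, chondrocyte (23 genes), endothelial (20 genes) or erythroid (13 genes) list was called in limma, while 0, 1, 4, 5 and 5 had an unadjusted p under 0.05, as did 17.5% of all named genes. F8, the gene of factor VIII, did not pass the test (0.11 ± 0.13, limma adjusted p = 0.732). In bulk tissue, fewer cells of a type and less RNA per cell cannot be told apart.

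A sham and a contralateral array stood apart from their groups. The sham knee of rat C5 had an array median of 5.94, against 5.7 to 5.77 in the other sham knees. It correlated with the other sham knees at 0.957 on average, against 0.973 to 0.977 for the rest. Without it 408 probe sets were called, 169 higher and 239 lower. Without the sham knee of C6 the higher probe sets numbered 205, and without that of C9 they numbered 235. The contralateral knee of rat K10 had the highest mean of the neutrophil list (7.95, the next knee at 6.22), of the erythroid list (7.85, next 6.88) and of the cell cycle list (7.77, next 6.55). Where a named gene lost its call without C5 or K10, this is stated beside it. Spon2, Aldh1l2, Fst, Tap1, Prdx6, Mt3 and Kdelr3 were among those that lost it in the fit of the 2 compared groups alone.

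Clock genes had the largest differences of the comparison. Of 5 measured core activators 3 fell and none rose, and of 9 repressors 7 rose and none fell. Of the 3 genes that act at the D-box, Dbp and Tef rose and Nfil3 fell. Over all named genes 1.68% were called higher and 0.754% lower. These lists and those below were chosen with earlier results of these data known, so their counts are not independent of the data. The list medians were −0.54 for the activators, 0.89 for the repressors and 1.62 for the D-box genes, beside 0.01 over all named genes. Without C5 the activators kept 3 calls and the repressors had 6, and Nfil3 lost its call; without K10 these counts were the same as with it.

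The sequences near the start sites of 6 genes described below are shown, with motifs of the loop or the metal response element marked. Each runs from 250 bases before to 50 bases after the gene's start in RefSeq on rat build GRCr8, written 5′ to 3′ along the gene, with each match of the named motif on either strand in capitals. For Ciart, Tef and Bhlhe41 the capitals mark the E-box CACGTG, which 6.42% of 33469 promoter windows hold.
Ciart at chr2:186112197-186112496 on the minus strand: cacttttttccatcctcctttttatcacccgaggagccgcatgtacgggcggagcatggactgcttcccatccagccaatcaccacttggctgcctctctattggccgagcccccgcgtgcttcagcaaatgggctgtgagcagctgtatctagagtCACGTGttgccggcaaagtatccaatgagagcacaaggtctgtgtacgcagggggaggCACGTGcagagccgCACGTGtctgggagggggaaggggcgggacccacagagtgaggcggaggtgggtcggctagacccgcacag
Tef at chr7:115206577-115206876 on the plus strand: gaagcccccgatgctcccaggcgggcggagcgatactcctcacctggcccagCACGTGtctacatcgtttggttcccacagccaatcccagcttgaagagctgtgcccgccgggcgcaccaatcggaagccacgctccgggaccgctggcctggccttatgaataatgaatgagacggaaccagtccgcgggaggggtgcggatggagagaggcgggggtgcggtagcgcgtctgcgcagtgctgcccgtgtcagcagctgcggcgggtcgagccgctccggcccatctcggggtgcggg
Bhlhe41 at chr4:180569306-180569605 on the minus strand: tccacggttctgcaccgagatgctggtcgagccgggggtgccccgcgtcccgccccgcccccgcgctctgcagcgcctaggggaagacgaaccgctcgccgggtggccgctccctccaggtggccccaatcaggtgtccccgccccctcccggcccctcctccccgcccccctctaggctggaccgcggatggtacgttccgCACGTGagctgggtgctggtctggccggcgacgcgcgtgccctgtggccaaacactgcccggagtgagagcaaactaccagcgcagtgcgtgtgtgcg
For Bmal1 they mark the core of the ROR element, TAGGTCA or TGGGTCA, which 6.6% of the windows hold.
Bmal1 at chr1:176766078-176766377 on the plus strand: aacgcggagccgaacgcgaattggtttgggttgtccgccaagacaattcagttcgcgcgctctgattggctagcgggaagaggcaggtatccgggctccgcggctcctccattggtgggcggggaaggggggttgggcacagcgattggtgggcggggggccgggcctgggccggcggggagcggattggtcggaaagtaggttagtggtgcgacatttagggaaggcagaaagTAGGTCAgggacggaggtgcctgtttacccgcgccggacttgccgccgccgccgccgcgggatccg
For Per2 they mark the D-box TTANGTAA, which 2.24% of the windows hold.
Per2 at chr9:99496944-99497243 on the minus strand: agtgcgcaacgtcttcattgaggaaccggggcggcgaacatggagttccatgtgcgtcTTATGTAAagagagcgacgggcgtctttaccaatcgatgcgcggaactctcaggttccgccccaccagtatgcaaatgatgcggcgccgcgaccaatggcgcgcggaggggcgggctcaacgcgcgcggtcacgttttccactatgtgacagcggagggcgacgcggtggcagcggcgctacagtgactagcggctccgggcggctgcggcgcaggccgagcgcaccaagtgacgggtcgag
For the metallothionein gene Mt1 they mark the core of the metal response element, TGCACNC or TGCGCNC, which 24.2% of the windows hold. A response to metal was not tested.
Mt1 at chr19:10832926-10833225 on the minus strand: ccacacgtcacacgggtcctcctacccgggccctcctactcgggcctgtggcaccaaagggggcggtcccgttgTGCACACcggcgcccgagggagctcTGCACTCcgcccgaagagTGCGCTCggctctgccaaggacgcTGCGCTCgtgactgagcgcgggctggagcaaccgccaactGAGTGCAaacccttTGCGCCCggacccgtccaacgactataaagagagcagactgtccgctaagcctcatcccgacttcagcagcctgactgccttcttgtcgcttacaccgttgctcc
Of the 14 clock genes with a window, 5 held the E-box, namely Bhlhe40, Bhlhe41, Ciart, Nr1d1 and Tef, and Ciart held 3 copies. Nr1d1 held it in the window at chr10:84229405-84229704 and not in that at chr10:84231763-84232062. A gene was counted if any of its windows held the motif, whereas the 6.42% is a share of windows. Among these genes the ROR core was found in the window of Bmal1 and the D-box in that of Per2. A match is a match of letters and no more, and a window without one says nothing of the factor.

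Among the activators Bmal1, the partner in every activating dimer, differed most. It read 6.58 at the lowest, 7.04 at the median and 9.02 at the highest in the contralateral knees, and 9.27, 9.35 and 9.77 in the sham knees. No contralateral value reached the lowest sham value. The difference was −2.02 ± 0.24 (95% interval −2.52 to −1.52, limma adjusted p = 1.09e-05), a level 4.06-fold lower. Npas2, which can take the place of Clock beside Bmal1, read 7.62, 8.24 and 9.9 against 10.05, 10.23 and 10.45. These groups did not overlap either (−1.82 ± 0.26, limma adjusted p = 9.81e-05). Clock itself fell less (−0.54 ± 0.09, limma adjusted p = 0.000371), with 9.77 to 10.67 in the contralateral and 10.52 to 10.93 in the sham knees. Rora and Rorb, receptors that switch on Bmal1, were not called; Rora differed by −0.06 (95% interval −0.36 to 0.23), and the mean of Rorb lay below every array median.

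The repressors moved the other way. Ciart, an inhibitor of the Bmal1 and Clock dimer, read 5.34, 6.85 and 7.69 in the contralateral knees and 4.86, 5.39 and 5.58 in the sham knees. All contralateral knees but 1 lay above every sham knee, and the difference was 1.48 ± 0.20 (limma adjusted p = 3.4e-05). Per3 and Per2 encode partners of the Cry proteins in the repressing complex. Per3 read 7.82, 8.92 and 9.32 against 7.18, 7.41 and 7.98 (1.34 ± 0.16). Per2 read 8.0, 8.68 and 9.53 against 7.12, 7.59 and 8.21 (1.10 ± 0.19). Per3 overlapped with sham through K2 alone, and Per2 through K1 and K2.

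Bhlhe41 and Bhlhe40, repressors that occupy E-boxes themselves, were higher by 1.05 ± 0.18 and 0.84 ± 0.14. Nr1d1, also known as Rev-erb alpha, read 11.39, 11.87 and 12.09 in the contralateral and 10.62, 11.21 and 11.43 in the sham knees (0.67 ± 0.14). Its groups overlapped through K2 alone. Per1, which also responds to glucocorticoids, was higher by 0.89 ± 0.21 (limma adjusted p = 0.0235), but it lost its call when sham knee C2, C5 or C6 was left out (limma adjusted p up to 0.0576). Cry1 and Cry2 did not pass the test, with differences of −0.05 (95% interval −0.33 to 0.23) and 0.20 (0.02 to 0.38).

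Of the factors that pass the rhythm on, Dbp had the largest difference of all called genes. It read 10.57, 11.99 and 12.4 in the contralateral knees and 8.81, 10.03 and 10.15 in the sham knees. The groups did not overlap, and the level was 4.45-fold higher (95% interval 3.40 to 5.81, limma adjusted p = 6.36e-08). Tef read 7.83, 8.56 and 9.06 against 6.32, 7.12 and 7.28, again without overlap (1.62 ± 0.15). Nfil3, the repressor at the same site, was lower (−0.65 ± 0.16, limma adjusted p = 0.0258), but it lost its call without sham knee C5 or C6 (limma adjusted p up to 0.055).

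Of 19 clock output genes 4 rose and none fell, with a list median of 0.18, against 1.68% of all named genes called higher. The tetraspanin gene Tspan4 read 9.49, 9.67 and 10.02 in the contralateral knees and 8.22, 8.65 and 9.00 in the sham knees, without overlap (1.09 ± 0.10, limma adjusted p = 7.72e-08). Klf15, a regulator of amino acid and glucose metabolism, rose by 0.98 ± 0.18, and Wee1, a kinase that holds back mitosis, by 0.78 ± 0.16. Hsd11b1, whose enzyme regenerates active glucocorticoid, was higher by 0.35 ± 0.10, a call lost in 13 of 18 fits that each left out 1 array, those without C5 and K10 among them (limma adjusted p = 0.0916 and 0.0628). None of 8 genes that control the stability of clock proteins was called in limma, 1 had an unadjusted p under 0.05 against 17.5% of all named genes, and their median difference was 0.04.

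**Figure D2:**
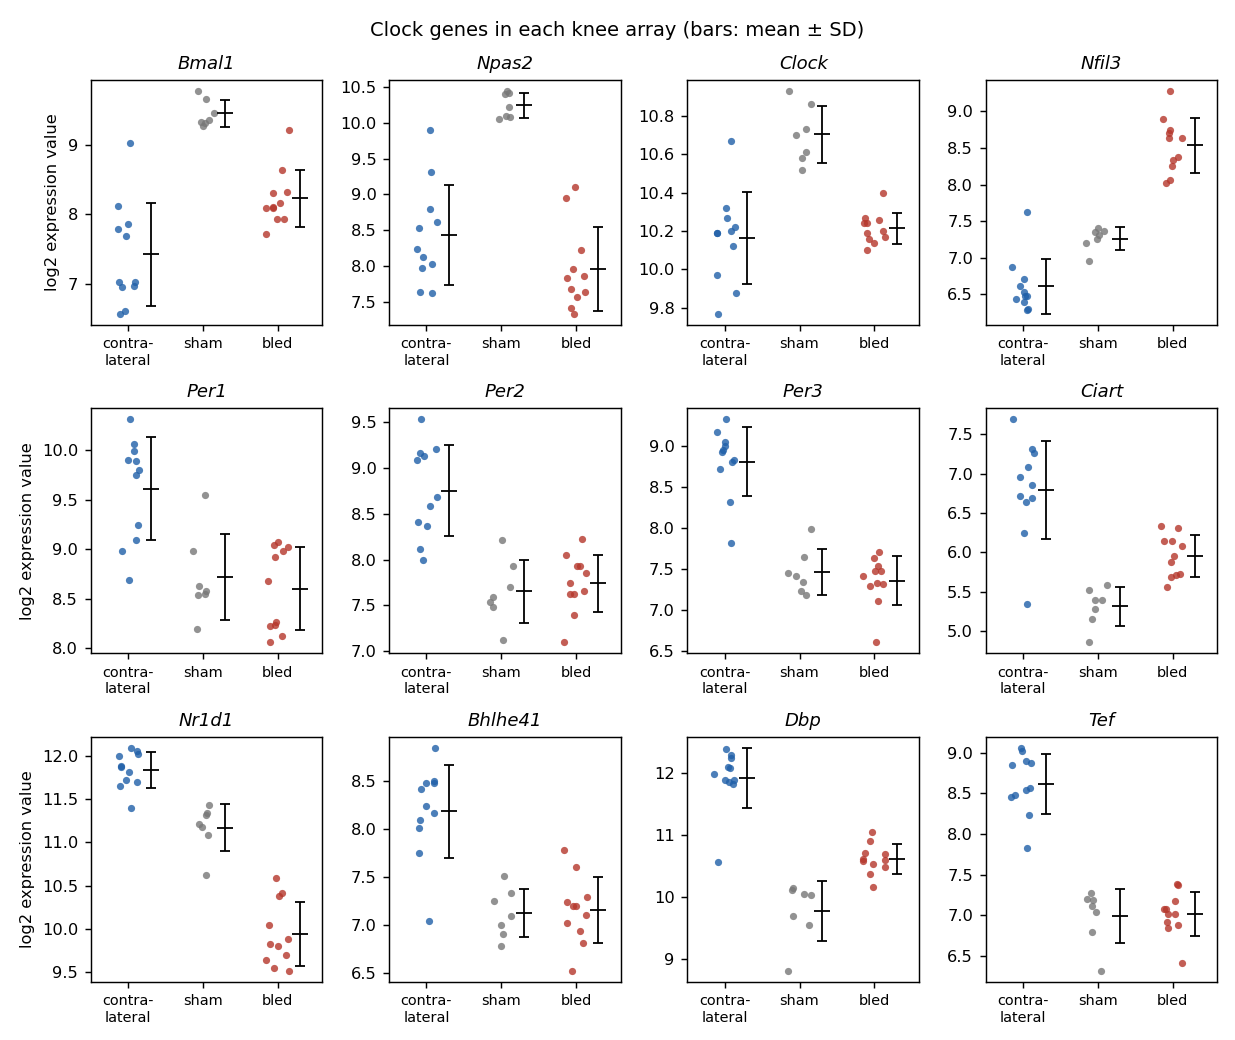
Log2 expression values (y axis) of 12 clock genes in each contralateral, sham and bled knee array (x axis), with the mean ± SD as bars; the y axes do not start at 0. Bmal1 and Npas2 lie lower and Dbp and Tef higher in the contralateral than in the sham knees without overlap, and 1 contralateral knee lies nearest to the sham knees in most panels.

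The contralateral knees were not alike in these genes, and that of rat K2 lay nearest to sham. K2 had the lowest contralateral value of Dbp (10.57), Tef (7.83), Per2 (8.0), Per3 (7.82), Ciart (5.34), Bhlhe41 (7.04), Bhlhe40 (10.49) and Nr1d1 (11.39). It also had the highest of Bmal1 (9.02), Npas2 (9.9), Clock (10.67) and Nfil3 (7.62), while its Per1 value (10.06) was among the higher ones. Some values also divided by rat number, as seen after the fact. Bmal1 read 7.69 to 9.02 in K1 to K5 and 6.58 to 7.04 in K6 to K11. Npas2 read 8.53 to 9.9 and 7.62 to 8.24, and Dbp 10.57 to 11.89 and 11.99 to 12.4. Tef, Per2, Per3, Ciart and Nr1d1 overlapped between these rats. In the contralateral popliteal node Bmal1 read 8.31 to 8.71 and 8.09 to 8.3, while Npas2 and Dbp overlapped.

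Across the 11 contralateral knees Bmal1 and Dbp were inversely related (Pearson's r = −0.912, Spearman's rho = −0.986). The permutation p was 1e-05, the smallest that 100000 permutations give, and 7e-05 when adjusted over 14 relations. Without the 2 rats farthest from the median r was −0.92 (n = 9, exact permutation p = 0.0013). Bmal1 and Npas2 varied together (r = 0.957, rho = 0.911, permutation p = 1e-05, adjusted 7e-05), with r = 0.886 without those 2 rats (exact permutation p = 0.00177). With Tef r was −0.907 (rho = −0.743, permutation p = 0.00039, adjusted 0.00182) and −0.727 without those 2 rats. The relation with Nr1d1 did not pass (r = −0.302, rho = −0.1, permutation p = 0.365, adjusted 0.568). The relations of Bmal1 with Per2, Per3 and Ciart had r = −0.68, −0.818 and −0.829 (rho = −0.538, −0.579 and −0.651, permutation p = 0.0192, 0.003 and 0.00229, adjusted 0.0384, 0.0084 and 0.00801). These relations rested on the farthest 2 rats, without which r was −0.335, −0.332 and −0.44. In the 7 sham knees 1 of 7 relations passed, that of Bmal1 with Per2 (r = −0.822, rho = −0.929, exact permutation p = 0.0171, adjusted 0.0384), with r = −0.623 without the 2 farthest rats. Bmal1 and Dbp had r = −0.248 there (rho = −0.643, exact permutation p = 0.601, adjusted 0.771), and the adjusted p of the other 5 was 0.448 to 0.981. The relations with Bmal1 were computed after the values of K2 had been seen. How far the relations in the contralateral knees rest on the division between K1 to K5 and K6 to K11 was not tested.

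The popliteal node of the same side gives another tissue of the same rats. The node comparison called 6.74% of genes. Dbp differed by 0.75 ± 0.15 (limma adjusted p = 0.00445), Tef by 0.49 ± 0.12 and Bmal1 by −0.46 ± 0.08 (limma adjusted p = 0.00109). A direct test of the knee difference minus the node difference called 2.82% of genes. It was called upwards for Dbp (1.4 ± 0.24, limma adjusted p = 0.000495), Tef, Per2, Per3, Ciart, Wee1 and Tspan4, and downwards for Bmal1 (−1.56 ± 0.25, limma adjusted p = 0.000155), Npas2 and Clock. Nr1d1 differed from sham by 0.67 in the knee and by 0.76 in the node, and the test between them did not pass (limma adjusted p = 0.901). The test took the knee and node of a rat as independent and called 746 probe sets. With the rat as a replicate block it called 965.

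Bled rats with a high level of a clock gene in the contralateral knee tended to have a high level in the node of that side. Over the 11 rats Pearson's r between knee and node was 0.828 for Dbp (rho = 0.834, permutation p = 0.00026, adjusted over 16 relations 0.00187). It was 0.896 for Bmal1 (rho = 0.801, permutation p = 0.00035, adjusted 0.00187) and 0.896 for Npas2 (rho = 0.864, permutation p = 0.00018, adjusted 0.00187). Of the 8 genes tested 7 passed, the exception being Nr1d1 (r = 0.612, rho = 0.61, permutation p = 0.0447, adjusted 0.0894). Without the 2 rats farthest from the median r was 0.792 for Dbp, 0.681 for Bmal1 and 0.763 for Npas2 (n = 9, exact permutation p = 0.0116, 0.0472 and 0.0219), and 0.27 to 0.672 for the other 5. None of the 16 relations passed once adjusted in that setting. How far they rest on the division between K1 to K5 and K6 to K11 was not tested. In the 7 sham rats none of the 8 relations passed (r from −0.683 to 0.688, exact permutation tests, lowest adjusted p = 0.131). The hour of the day at which each rat was killed is not given in the sources used here, so the bleed and a difference in hour cannot be told apart for the clock genes.

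**Figure D3:**
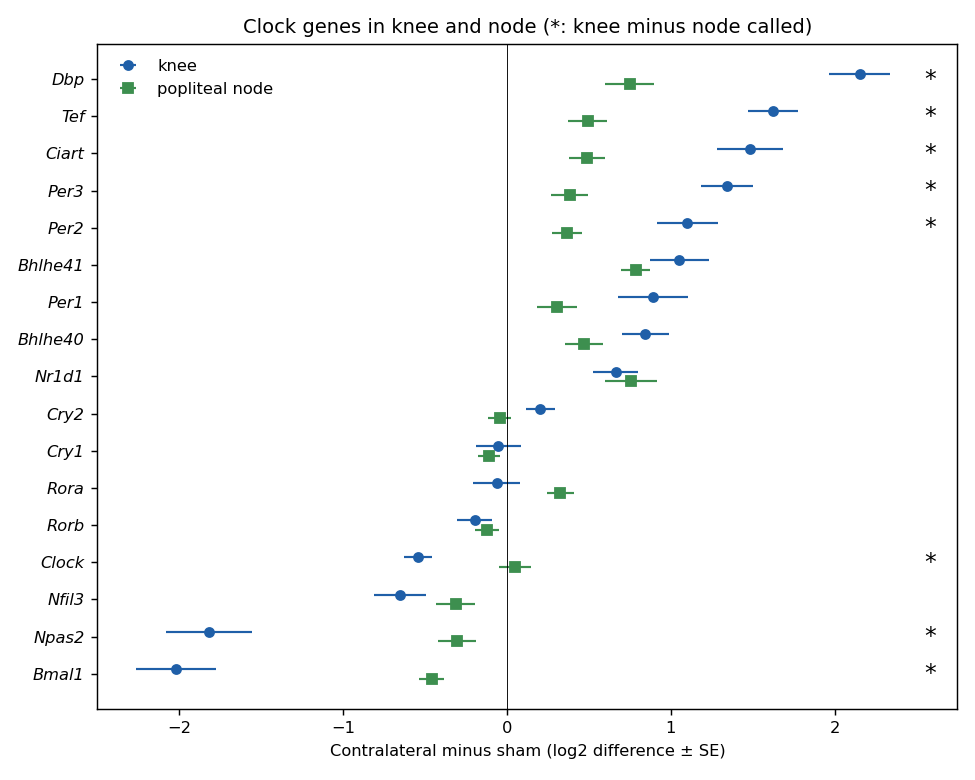
Contralateral minus sham differences (x axis, log2, ± SE) of 17 clock genes (y axis) in the knee and in the popliteal node; an asterisk marks a called knee minus node test. Dbp is at 2.15 in the knee and 0.75 in the node, Bmal1 at −2.02 and −0.46, and Nr1d1 at 0.67 and 0.76.

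The bled knees of the same rats served in the estimate of the spread and are otherwise given only beside these values. Their comparisons share arrays with the one described. The comparison of bled with sham knees called 50.5% of genes, and that of bled with contralateral knees 49.2%. Bmal1 differed from sham by −2.02 in the contralateral and by −1.22 in the bled knee, and Npas2 by −1.82 and −2.29. Dbp differed from sham by 2.15 in the contralateral and by 0.84 in the bled knee. The bled knee was near sham in Tef (0.02), Per2 (0.09) and Per3 (−0.11). Nr1d1 differed from sham by 0.67 in the contralateral knee and by −1.23 in the bled knee, and Nfil3 by −0.65 and 1.28.

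Of 31 measured enzymes that detoxify foreign and lipid compounds 9 rose and none fell, with a median of 0.26. Of all named genes 1.68% were called higher. On the list 6 rose without C5 and 8 without K10. The list was chosen with earlier results of these data known, so its count is no independent support. Fmo2, a flavin monooxygenase, read 8.62, 10.04 and 11.36 in the contralateral knees and 7.62, 8.39 and 8.93 in the sham knees. The groups overlapped through K1 and K10, and the level was 3.05-fold higher (95% interval 2.09 to 4.43, limma adjusted p = 0.00044). The alcohol dehydrogenase gene Adh1c rose by 1.24 ± 0.25, the acetyltransferase gene Nat8f3 by 1.17 ± 0.16, and Aldh3a1, an aldehyde dehydrogenase, by 0.96 ± 0.18. Cyp1b1, a cytochrome P450, rose by 0.87 ± 0.15. In the bled knee Fmo2, Adh1c, Nat8f3 and Aldh3a1 differed from sham by −2.06, −1.31, −0.89 and −1.16.

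Of 31 genes of the oxidative stress factor Nfe2l2 and its targets, 5 rose and none fell, with a median of 0.13. Of all named genes 1.68% were called higher. Ephx1, an epoxide hydrolase, read 10.02, 10.64 and 11.04 against 9.22, 9.46 and 9.94 without overlap (1.07 ± 0.20, limma adjusted p = 0.00163). Nfe2l2 itself, counted on the list, also differed without overlap, by 0.27 ± 0.06. Gclc, Nqo1 and Gstp1, which serve glutathione synthesis, quinone reduction and glutathione conjugation, were higher by 0.44, 0.58 and 0.34, but each lost its call without C5 (limma adjusted p = 0.0527, 0.0577 and 0.0566), and Gstp1 also without C6. Without C5 the list had 2 calls, and without K10 it had 6. Hmox1, the haem-degrading target of the same factor, differed by −0.19 (95% interval −0.56 to 0.18), or 0.01 without sham knee C7, and was not called.

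Of 21 superoxide and peroxide enzymes 3 rose and none fell, against 1.68% of all named genes called higher. Nox4, an oxidase that produces hydrogen peroxide, read 7.65, 8.17 and 9.16 in the contralateral knees and 6.31, 6.87 and 7.65 in the sham knees. Its groups met at 7.65, and the difference was 1.35 ± 0.24 (limma adjusted p = 0.0014). In the bled knee Nox4 stood at the sham level (−0.00). The peroxide reductases Gpx3 and Prdx6 were higher by 0.50 and 0.31, and Gpx3 lost its call in 12 of 18 fits that each left out 1 array, C5 and K10 among them (limma adjusted p = 0.0735 and 0.0529).

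Of 18 metallothionein and zinc genes 3 rose and 1 fell, with a median of −0.01. Of all named genes 1.68% were called higher and 0.754% lower. The metallothioneins Mt1 and Mt2A bind zinc and copper. Mt1, whose window shown above held 6 metal response cores, read 10.28, 10.72 and 11.92 in the contralateral and 9.48, 9.7 and 10.58 in the sham knees (1.05 ± 0.20, limma adjusted p = 0.00298). Mt2A read 11.81, 12.76 and 13.26 against 10.96, 11.56 and 12.55 (1.09 ± 0.18, limma adjusted p = 0.000381). Both overlapped with sham. A second probe set of Mt2A differed by 1.65 and was called, while that of Mt1 differed by 0.81 and was not (limma adjusted p = 0.0996). The zinc exporter gene Slc30a1 rose by 0.52 ± 0.10, and Mt3 fell by 0.47. In the bled knee Mt1, Mt2A and Slc30a1 were further above sham, by 2.94, 2.00 and 1.34. In the node Mt2A differed from sham by 1.45 ± 0.27 (limma adjusted p = 0.00286).

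Of 24 glucocorticoid-responsive genes 5 rose and 1 fell, with a median of 0.32, against 1.68% of all named genes called higher and 0.754% lower. The members that rose were Mt2A, Mt1, Per1, Hsd11b1 and Arrdc2, an arrestin-domain gene (0.50 ± 0.11, limma adjusted p = 0.00843), so 4 of them also stand on a list described above. Angptl4 fell. Fkbp5, a chaperone gene often used as a marker of glucocorticoid action, read 8.52, 8.87 and 10.38 against 7.93, 9.05 and 9.33 and was not called (0.43, 95% interval −0.01 to 0.86). Without C5 the list had 3 calls upwards and none downwards.

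The collagen list had the most lower calls of any list. Of 26 collagen genes 9 fell and none rose, with a median of −0.31, against 0.754% of genes called lower; 7 fell without C5 and 10 without K10. Col5a3 and Col5a1 encode chains of collagen V, which sets fibril diameter. Col5a3 read 7.57, 8.19 and 8.67 in the contralateral and 9.13, 9.25 and 9.63 in the sham knees, without overlap (−1.27 ± 0.15, limma adjusted p = 9.38e-06). Col5a1 read 8.34, 8.98 and 9.32 against 9.59, 9.81 and 9.94, also without overlap (−0.91 ± 0.12), and its other probe set gave −0.87. The collagen VI gene Col6a6 differed by −1.25 ± 0.20 without overlap.

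Of the collagen I and III chains, which form the bulk of the synovial matrix, Col1a1 read 11.89, 12.39 and 12.79 against 12.81, 13.11 and 13.22 and did not overlap (−0.66 ± 0.13, limma adjusted p = 0.00422). Col1a2 and Col3a1 differed by −0.50 and −0.48. Col6a3 was lower by 0.62 on the log2 scale, a call lost in 12 of 18 fits that each left out 1 array, C5 among them (limma adjusted p = 0.0658). Of 23 genes of collagen assembly 3 fell and none rose, against 0.754% of all named genes called lower. These were the cross-linking oxidase Loxl2 (−0.82 ± 0.14) and the procollagen proteinases Adamts14 (−0.56 ± 0.10) and Bmp1 (−0.34 ± 0.09), the last lost in 10 of those 18 fits.

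Other matrix genes gave fewer calls. Of 30 non-collagen matrix genes 3 fell and 1 rose, with a median of 0.01, against 0.754% of all named genes called lower and 1.68% higher. Spon2, a secreted matrix protein, read 6.94, 7.82 and 10.04 against 9.1, 9.37 and 9.57 (−1.32 ± 0.29), and 2 contralateral knees, K2 and K11, lay above all sham knees. The microfibril gene Fbn1 fell by 0.78 without overlap, and Postn by 0.76. Fbln1, a fibulin, rose by 0.85 ± 0.14. Of 27 matrix-degrading enzymes and inhibitors 4 fell and none rose. The aggrecanase gene Adamts4 read 5.65, 6.16 and 6.81 against 6.84, 7.11 and 7.46 without overlap (−0.93 ± 0.16, limma adjusted p = 0.000593), and Adam12, Adamts15 and Adamts12 differed by −0.90, −0.70 and −0.62. Mmp3, the stromelysin, differed by 0.58 (95% interval −0.16 to 1.32), or 0.34 without K10, and was not called.

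Of 25 synovial lining and fibroblast markers 4 fell and none rose, against 0.754% of all named genes called lower. They were Col1a1, Col1a2, Col3a1 and the fibroblast surface marker Thy1 (−0.63 ± 0.12, limma adjusted p = 0.00265). The mean of that list was 10.19 to 10.59 in the contralateral knees (median 10.5) and 10.34 to 10.71 in the sham knees (median 10.54). K2, K6, K7 and K11 lay below every sham knee, and C2, C3 and C7 above every contralateral knee. The part of the fibroblast share in the collagen values was not tested. In the node none of Col5a3 (0.06), Col5a1 (0.07), Col1a1 (0.03) and Loxl2 (0.30) was called, and the test between knee and node was called for Col5a3 (−1.33 ± 0.17, limma adjusted p = 1.92e-06), Col5a1 and Loxl2 but not for Col1a1 (limma adjusted p = 0.0714). In the bled knee Adamts4 and Adam12 differed from sham by 1.89 and 2.17, opposite in sign to the contralateral knee.

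**Figure D4:**
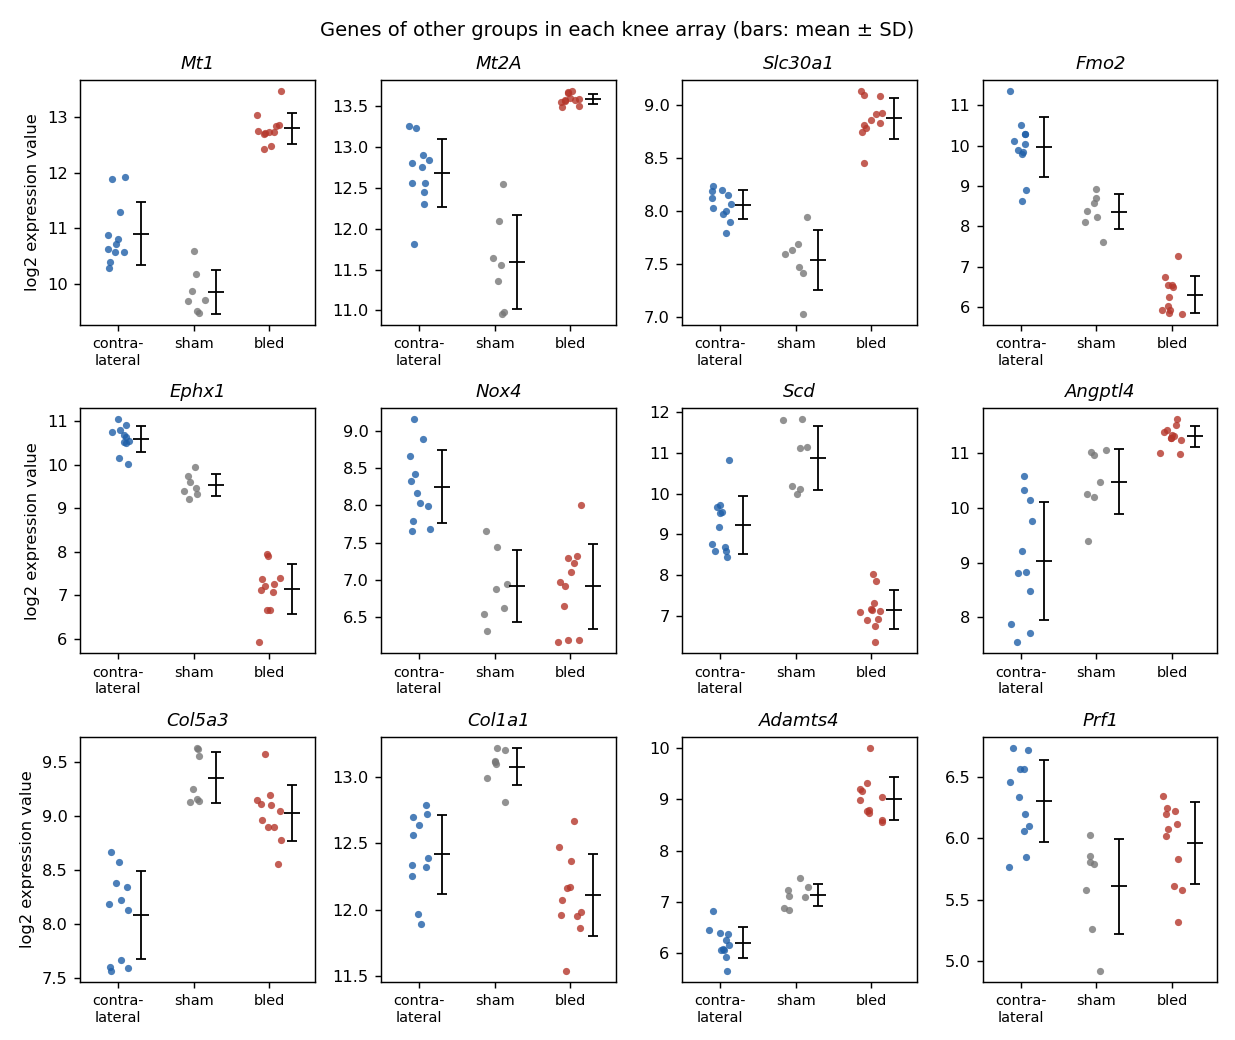
Log2 expression values (y axis) of 12 genes of other groups in each contralateral, sham and bled knee array (x axis), with the mean ± SD as bars; the y axes do not start at 0. Ephx1, Col5a3, Col1a1 and Adamts4 do not overlap between contralateral and sham knees, whereas Mt1, Mt2A, Fmo2, Scd, Angptl4 and Prf1 do.

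Of 25 genes of fatty acid synthesis 2 fell and none rose, against 0.754% of all genes called lower, with a median of −0.02. Scd, the desaturase that makes monounsaturated fatty acids, read 8.44, 9.19 and 10.83 in the contralateral and 10, 11.11 and 11.82 in the sham knees. It overlapped with sham through K8 alone and was 3.14-fold lower (95% interval of the difference −2.26 to −1.04, limma adjusted p = 0.00152). Acaca, the enzyme of malonyl-CoA synthesis, fell by 0.39, a call lost in 14 of 18 fits that each left out 1 array, C5 and K10 among them (limma adjusted p = 0.135 and 0.0628). Of 26 PPAR targets 2 fell and 1 rose. Angptl4, an inhibitor of lipoprotein lipase, read 7.55, 8.83 and 10.58 against 9.4, 10.47 and 11.06 (−1.46 ± 0.34, limma adjusted p = 0.0177), and without C5 the adjusted p was 0.0528. The uncoupling protein gene Ucp3 (−1.15 ± 0.31) lost its call in 12 of those 18 fits, K10 among them (limma adjusted p = 0.0641), and Vnn1 (0.51) lost it without C5.

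Aldh1l2, a mitochondrial folate enzyme, read 5.15, 6.55 and 8.11 against 7.0, 7.92 and 8.15 (−1.25 ± 0.26, limma adjusted p = 0.00843) and was the only call among 27 genes of the Atf4 response. On the same list the mitochondrial folate enzymes Shmt2 and Mthfd2 differed by 0.08 and −0.13 and were not called (limma adjusted p = 0.772 and 0.703). Mthfd1l, a mitochondrial folate enzyme on no list, read 5.79, 6.6 and 6.8 against 5.26, 5.52 and 5.68, without overlap (0.99 ± 0.12, limma adjusted p = 1.39e-05). In the node Aldh1l2 differed by 0.70 ± 0.20 and Mthfd1l by −0.09 ± 0.06, and both were called in the test between the tissues. Cit, a kinase of cell division, was the only call among 33 cell cycle genes (−1.15 ± 0.15) and did not overlap. Beside 0.754% of all named genes called lower, such single calls are not read as results of their lists.

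Of the cytokines that mark an inflamed joint none of Il1b, Il6, Tnf, Ccl2 and Cxcl1 was called. Their differences were 0.45 (95% interval −0.05 to 0.96), 0.40 (−0.04 to 0.85), 0.13 (−0.09 to 0.36), −0.26 (−0.94 to 0.41) and 0.13 (−0.37 to 0.63). The same genes differed from sham by 3.64, 6.16, 0.49, 3.59 and 2.59 in the bled knee. Ccl2 ranged from −0.48 without C5 to −0.10 without C6 when 1 array was left out. Without sham knee C1 Tnf differed by 0.08 and Cxcl1 by 0.06. Arg1 was not called either (−0.21, or −0.14 without sham knee C2), nor was Lcn2 (0.31, or 0.14 without K10). Il6 was highest in K10 (6.34, the other contralateral knees 4.54 to 5.32), as was Mmp3 (12.13, the others 8.06 to 11.05).

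Of 27 proinflammatory genes 1 rose, Ptgs2, the inducible cyclooxygenase (6.81, 7.72 and 9.32 against 6.52, 6.68 and 7.3; 0.93 ± 0.24, limma adjusted p = 0.0382). It lost its call in 10 of 18 fits that each left out 1 array, with adjusted p = 0.083 without C5 and 0.0518 without K10. Of 33 chemokine genes Ccl5 rose (0.66 ± 0.16), and it lost its call without C5, C6, C7 or C9. Beside 1.68% of all named genes called higher, these single calls are not read as results of their lists. Of 27 immediate-early genes 3 rose and none fell, also without C5 or K10. These were Ier3, an early response gene (8.33, 8.87 and 9.03 against 7.49, 8.03 and 8.24), Zfp36, whose protein promotes decay of cytokine messengers (11.05, 11.35 and 11.79 against 10.13, 10.63 and 10.96), and Junb, a subunit of AP-1. Ier3 and Zfp36 did not overlap (0.86 ± 0.15 and 0.70 ± 0.12, limma adjusted p = 0.0006 and 0.00112), and Junb did (0.70 ± 0.15).

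Of 23 acute phase genes 4 rose and none fell, with a median of 0.00, against 1.68% of all named genes called higher. Lbp, the carrier of bacterial lipopolysaccharide, read 11.66, 12.07 and 13.14 against 10.72, 11.32 and 12.25 (0.90 ± 0.18, limma adjusted p = 0.00585). The ferroxidase gene Cp rose by 0.57 ± 0.13 and lost its call without C6. The protease inhibitors Serpina3n and Serpina1 were higher by 0.81 and 0.70, calls lost in 13 and 14 of the 18 fits, Serpina3n without K10 and Serpina1 without C5 among others (limma adjusted p = 0.0757 and 0.0562). Of 29 coagulation genes the protein C receptor gene Procr was the only call (10.03, 10.48 and 10.69 against 9.39, 9.61 and 10.53; 0.72 ± 0.13), and 1 sham knee, C3, lay well above the other sham knees.

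Of 24 antigen presentation genes 3 rose and none fell, against 1.68% of all named genes called higher. On this list 23 had a positive difference, as had 52.9% of all named genes, with a list median of 0.23. Tap1 and Tapbp, of the peptide loading complex, were higher by 0.52 ± 0.11 and 0.42 ± 0.08, and the immunoproteasome gene Psmb9 by 0.38 ± 0.09. Psmb9 lost its call without C5 or C9. Of 36 interferon-stimulated genes none was called, 8 had an unadjusted p under 0.05 in limma against 17.5% of all named genes, and 35 had a positive difference against those 52.9%, with a median of 0.23. Of 20 complement genes none was called in limma, while 12 had an unadjusted p under 0.05, again against 17.5%. Their differences ran from −0.51 to 0.71, with a median of 0.31, and 14 of the 20 were positive.

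Of 29 T and NK cell genes 4 rose and none fell, 3 without C5 and 4 without K10, with a median of 0.14. Of all named genes 1.68% were called higher. Cd8a, the T cell coreceptor, read 5.53, 6.2 and 6.68 against 5.11, 5.53 and 5.62 (0.65 ± 0.13, limma adjusted p = 0.00555), and its groups overlapped through K1 alone. Prf1, the pore protein of cytotoxic granules, read 5.77, 6.34 and 6.74 against 4.92, 5.79 and 6.03 (0.70 ± 0.16) and lost its call without C5 or C9 (limma adjusted p up to 0.0643). The granzyme genes Gzma and Gzmk were higher by 0.50 and 0.48, from means below every array median, and each lost its call without C6. The mean of the list was 5.56 to 6.15 in the contralateral knees and 5.45 to 5.71 in the sham knees, with K10 highest.

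Of 28 monocyte and macrophage genes 2 rose, against 1.68% of all named genes called higher. They were Gpnmb (0.55 ± 0.12) and the efferocytosis receptor gene Mertk (0.41 ± 0.10). Mertk lost its call in 9 of 18 fits that each left out 1 array, C5 among them (limma adjusted p = 0.065). Without C5 there was 1 call on the list and without both C5 and K10 none. No neutrophil gene of 22 was called in limma and 7 had an unadjusted p under 0.05, against 17.5% of all named genes. S100a9 differed by 1.21 and Mmp8 by 1.27, or by 0.88 and 1.01 without K10. S100a9 read 9.66 in K10, 5.3 to 6.84 in the other contralateral knees and 4.85 to 5.49 in the sham knees. The part of infiltrating cells in these values was not tested.

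Of 27 TGF-beta and BMP genes Gdf10, a BMP-like factor, rose (8.15, 8.85 and 9.73 against 7.48, 7.86 and 8.51; 0.87 ± 0.19, limma adjusted p = 0.00897), and the activin inhibitor gene Fst fell (−0.68 ± 0.15). Tgfb2 was higher by 0.49, a call lost in 8 of 18 fits that each left out 1 array, C5 among them. Of 22 Wnt genes the antagonist Sfrp1 was the only call (0.73 ± 0.17), lost without C6. Of all named genes 1.68% were called higher and 0.754% lower, and a single call is not read as a result of its list. No gene of the heat-shock, hypoxia and glycolysis, pain and neurotrophin or oxidative phosphorylation lists was called in limma, while 2 of 17, 2 of 23, 3 of 18 and 0 of 29 had an unadjusted p under 0.05, against 17.5% of all named genes.

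**Figure D5:**
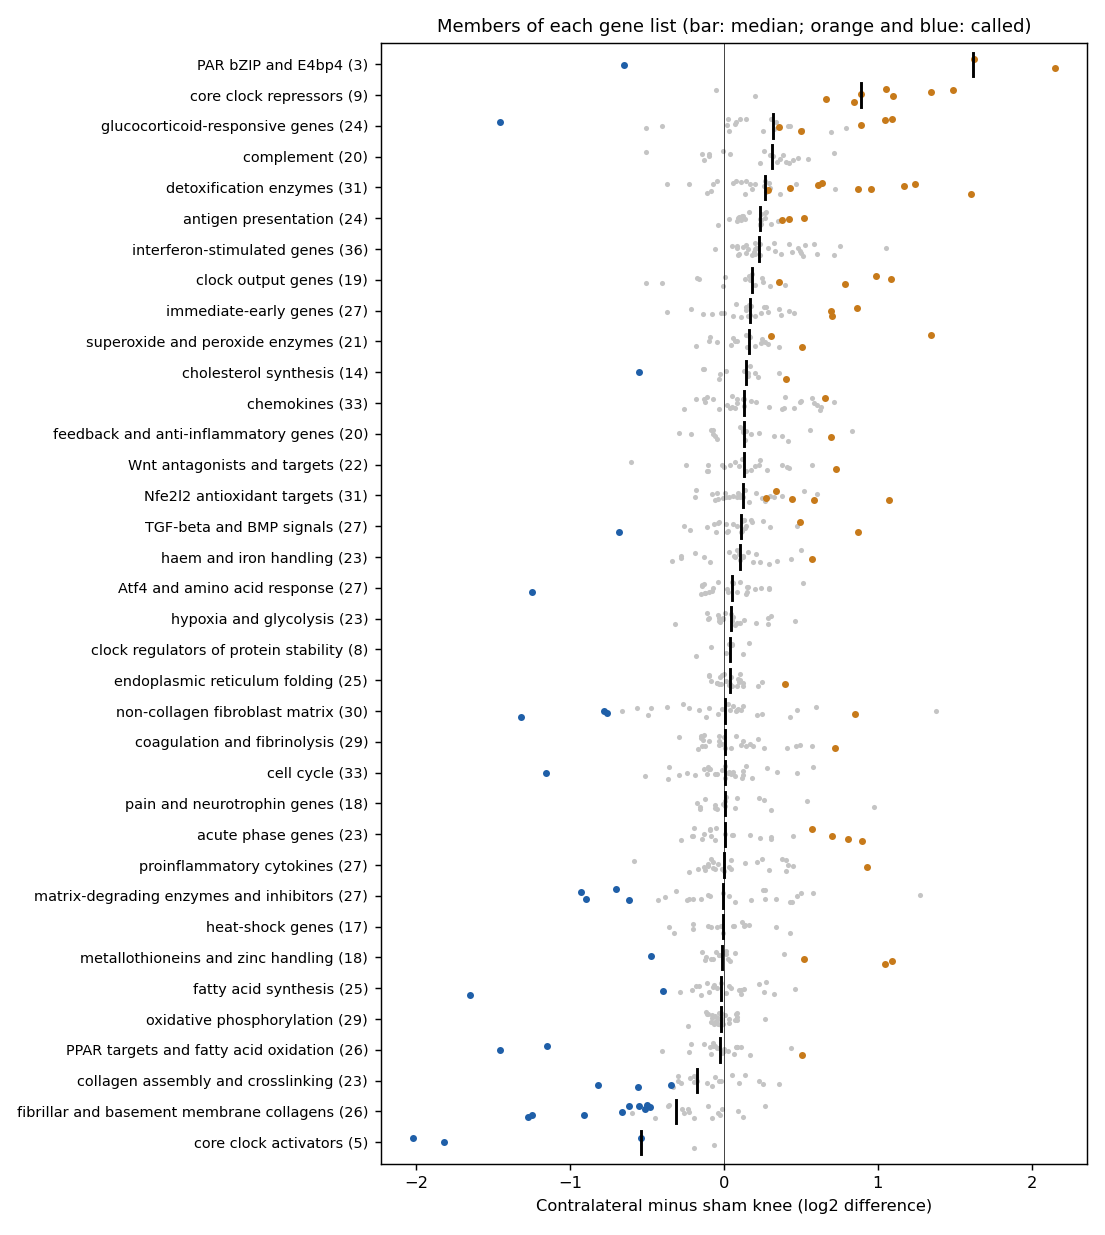
Contralateral minus sham differences (x axis, log2) of the measured members of 36 gene lists (y axis, number of members in brackets); grey points were not called, orange points were called higher, blue points lower, and the black bar is the list median. The D-box genes and the core clock repressors lie at the top (medians 1.62 and 0.89) and the core clock activators at the bottom (−0.54). The clock output and clock protein stability lists lie between (0.18 and 0.04), and the collagen list has 9 members called lower.

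Beyond the lists, a few genes of the largest differences had no overlap. Pik3ip1, an inhibitor of phosphoinositide 3-kinase, read 8.67, 9.21 and 9.61 against 7.78, 8.06 and 8.64 (1.08 ± 0.16, limma adjusted p = 9.47e-05). Arsi, a sulfatase, read 6.5, 7.2 and 7.51 against 7.98, 8.17 and 8.82 (−1.17 ± 0.14, limma adjusted p = 8.26e-06). The carboxypeptidase gene Cpz, which acts on Wnt proteins, differed by −1.07 ± 0.14, and Fam169b by 1.09 ± 0.22. Epm2a, the glycogen phosphatase laforin, differed by 1.31 ± 0.25 with overlap. The kinase gene Nrk (−1.15 ± 0.14) had a mean below every array median, and Itm2a and Plppr5, both with overlap, differed by −0.98 and −1.0. Cpeb1, a regulator of messenger RNA polyadenylation, was outside the naming rule and was chosen after its values were seen; with Dbp it had the lowest adjusted p of all genes (1.05 ± 0.09, limma adjusted p = 6.36e-08) and did not overlap.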

How the data were processed

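RNA of knee synovial tissue and popliteal lymph nodes was hybridized to Affymetrix rat gene arrays, 1 array per sample. Per the submitters' processing notes, the authors made the log2 expression values with RMA in Affymetrix Expression Console 1.4.46, and the deposited values have 2 decimals and run from 1.62 to 14.03. RMA corrects background and equalizes the distributions of probe values between arrays, so a shift of all genes at once would not be seen. The medians of the deposited probe set values still ran from 5.64 to 5.94 in the knee arrays, highest in C5. No further normalization was applied. Arrays have no read depth, and their number limits the precision.

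Of 36685 probe sets the annotation lists 19086, of which 18511 have 1 gene symbol and 575 several; 17599 are unlisted and unnamed here. A gene was read from its probe set of highest mean. limma 3.58.1 in R 4.3.3 fitted the 3 knee groups with 1 mean each and no covariate (26 residual degrees of freedom), and p-values were adjusted by Benjamini-Hochberg over all probe sets. Knee and node were compared in 1 fit of all groups. The test was tried on simulated data with known differences. Correlations used 100000 permutations, or exact enumeration for under 10 rats, in scipy 1.17.1, and all tests are two-sided.

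Named were the 15 genes of largest difference in each direction among those called, the clock lists, up to 6 called members of each of 48 lists (2 members where none was called), genes fixed by name, and the 6 called genes of largest knee minus node value each way. The members and lists were chosen with earlier results of these data known. The numbers of a bled rat and a sham rat share nothing, so they pair nothing between these groups. The 2 knees of a bled rat deviated from their group means with a correlation of −0.1 to 0.21 (mean 0.069 over 11 rats). Alternatives were the 2 compared groups alone, array centring, quantile normalization, array weights, an intensity trend with a robust prior, the muscle or the adipocyte mean as a covariate, leaving out dim probe sets, 1 probe set per gene, a threshold of 0.01, leaving out each array, and the rat as a random block.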

Additional observations from a re-analysis of the deposited data

Results flagged for a closer look

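The contralateral minus sham difference was itself compared between the knee and the popliteal node. Of the named genes 41 had a limma adjusted p under 0.05 in that test, 15 with a value above 0 and 26 below it. Over all 18166 genes the test called 2.82%. Some of the named genes were chosen by this test or by large knee differences, so the count of 41 is no result of its own. The values are the knee difference minus the node difference on the log2 scale. In the node 11 of 26 adipocyte genes were called higher than in sham, with a median of 0.65. So were 17 of 25 genes of endoplasmic reticulum folding, with a median of 0.30. The node comparison called 6.74% of all named genes in either direction. The part of such node differences in the values below was not tested. Among the clock genes they were Dbp (1.4), Tef (1.13), Ciart (1.00), Per3 (0.96), Wee1 (0.82), Per2 (0.74), Tspan4 (0.66), Clock (−0.59), Npas2 (−1.51) and Bmal1 (−1.56). Among the matrix genes and their enzymes they were Col5a3 (−1.33), Col6a6 (−1.12), Col5a1 (−0.98), Col1a2 (−0.74), Col5a2 (−0.68), Adamts14 (−0.45), Loxl2 (−1.12), Fbn1 (−0.88), Thy1 (−0.81), Adamts15 (−1.16), Adam12 (−1.09) and Adamts4 (−0.95). Among the metabolic and redox genes they were Nat8f3 (1.11), Mthfd1l (1.08), Nox4 (1.04), Aldh3a1 (0.86), Arrdc2 (0.58), Angptl4 (−2.07), Aldh1l2 (−1.94), Scd (−1.23), Ucp3 (−1.15) and Dhcr7 (−0.71). The remaining genes were Fam169b (1.42), Pik3ip1 (0.97), Cd226 (0.90), Kdelr3 (−1.46), Arsi (−1.26), Cpz (−1.15), Cit (−1.11), Nrk (−1.06) and Itm2a (−0.88). Cd226, a receptor of T and NK cells, was named after its values were seen, and its knee call was lost in 12 of 18 fits that each left out 1 array, C5 among them.

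In the sham knees a single array lay far from the other 6 for 6 of 146 named genes by Dixon's criterion, which chance meets in about 1 in 20 groups. Cd8a read 5.11 in C9 with the next sham knee at 5.46, and Col1a2 read 12.58 there with the next at 12.9. Gclc read 7.4 in C5 with the next at 7.99. Mt3 read 7.56 in C1 with the next at 6.62, and Pck1, a gluconeogenic enzyme, read 10.87 there with the next at 11.82. Procr read 10.53 in C3 with the next at 9.76. C5 carried 1 of these 6.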

How the results depend on the processing

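In the contralateral minus sham knee comparison, fitting only the 2 compared groups gave 381 called probe sets (193 higher and 188 lower), and an adjusted p under 0.01 gave 250 (100 and 150). Subtracting array medians, which moved the median difference by 0.0582, gave 634 higher; leaving out dim probe sets gave 577 higher; array weights gave 402 in all and 166 higher; 1 probe set per gene gave 189 lower. Leaving out each array in turn gave 408 to 772 called, 169 to 436 higher and 239 to 363 lower. Without C5 and K10, chosen after seeing the data, 203 were higher. With the rat as a replicate block 671 were called, and the knee minus node test had 965 calls in place of 746; without sham knee C5 and sham nodes C2 and C9 it had 480. Of the 16 knee and node relations 7 passed with Pearson's r, 3 with Spearman's rho and 0 without the 2 rats farthest from the median. Of 102 called named genes 60 kept their call in all settings run, 42 lost it in at least 1, 31 of them when 1 array was left out, 23 without C5 and 7 without K10; none changed sign. The causes were not tested.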

Other observations

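Of 14 cholesterol synthesis genes the desaturase gene Sc5d rose by 0.40 ± 0.09 and the reductase gene Dhcr7 fell by 0.55; Dhcr7 lost its call in 9 of 18 fits that each left out 1 array, C5 among them. Of 25 genes of folding in the endoplasmic reticulum Herpud1, which serves the removal of misfolded proteins, was higher by 0.40 ± 0.11, a call lost in 14 of 18 fits that each left out 1 array, C5 among them. Kdelr3, a receptor that returns escaped proteins to that compartment, was on no list and differed by −0.65 ± 0.15 in the knee and by 0.81 ± 0.18 in the node. In the node 17 of the 25 folding genes were called higher, with a median of 0.30, and 6.74% of all named genes were called in either direction. Of 20 feedback and anti-inflammatory genes Zfp36 was the only call, and of 23 haem and iron genes Cp was. Of 18 Schwann cell and myelin genes Cnp was the only call (0.30 ± 0.08), lost in 13 of 18 fits that each left out 1 array, K10 and C5 among them. Over all 18166 genes 1.68% were called higher and 0.754% lower in the knee, and these few knee calls are not read as results of their lists.

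None of 20 B and plasma cell genes and none of 19 mast cell and eosinophil genes was called in limma, while 4 and 4 had an unadjusted p under 0.05, against 17.5% of all named genes. Sh2d1b, an adaptor of NK cell receptors named after its values were seen, read 6.73, 7.14 and 8.11 in the contralateral and 5.87, 6.04 and 7.47 in the sham knees (0.87 ± 0.20, limma adjusted p = 0.0157), and without C5 its adjusted p was 0.0506. It differed from sham by 3.54 in the bled knee and by 0.86 in the node. The run of 74 unlisted probe sets had a mean of 6.02 to 7.19 in the bled knees (median 6.30), and medians of 5.08 in the contralateral and 5.29 in the sham nodes.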
